A study of Mus musculus with 10 samples.

Results

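C3 and B are the late and the early end of one stated culture lineage of heart cells. The cells were grown from the left atrial appendage (the ear-shaped pouch of that atrium) of C57BL/6 mice, which were adults of 8 to 12 weeks. The libraries were chosen by their labels alone, 2 of C3 and 2 of B, which makes 4 of the 10 RNA sequencing libraries of the series. C3 cells were B-type cells at passage 10 of culture, labelled negative for c-kit and for CD45. B cells were primary cells from explants treated with trypsin at 0.05% and collagenase D at 0.1%, and they were labelled positive for c-kit, a receptor of many stem and progenitor cells, and for CD45, the phosphatase on the surface of white blood cells. Between the 2 ends lie C1, at passage 6 and labelled c-kit+/CD45-, and C2, at passage 8 and labelled c-kit-/CD45-. A, the remaining type, was primary, came from trypsin at 0.25% and was labelled c-kit+/CD45-. The 10 libraries, 2 per type, were all from sorted cells of the same strain, tissue and age. C3 differs from B in passage and in surface label at once, so the effect of culture and of the sort cannot be told apart. Whether the 2 libraries of a type stand for different mice or dishes is not stated in the labels, and the p-values measure only the spread between libraries, which may be technical.

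As background, macrophages are tissue phagocytes that take up debris, present antigen and depend on the growth factor receptor Csf1r and on the transcription factor PU.1. The heart also holds fibroblasts, which lay down collagen, and the epicardium, a keratin-bearing mesothelium on its outer surface. In culture the division of primary cells is known to be limited by inhibitors of cyclin-dependent kinases, among them the products of Cdkn2a and Cdkn2b.

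The deposited values were read, from their pattern, as log2 normalized reads from which each gene's median over the 10 libraries was taken away. For most genes only differences between libraries are therefore known, and such values are called centred log2 values here. Normalized reads are given for genes whose lowest value occurs in at least 2 libraries and so marks the floor, which is 1 normalized read. The relative depth, from the spacing of low values, was 3.86 and 5.03 in C3 and 0.436 and 0.552 in B, so that 3 reads were worth 6.88 and 5.43 normalized reads in B and less than the floor in C3. The total reads per library are unknown. A fold against a group at the floor in both libraries is a bound, taken against 1 normalized read for C3 and against 6.88 for B. The root mean square distance between libraries was 0.435 log2 between the C3 libraries, 0.516 between the B libraries, and 2.42 to 2.43 between C3 and B.

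Sex-linked RNA differed between types that the labels give as 1 lineage. Ddx3y, a gene of the Y chromosome, was at 1 and 1 normalized reads in C3 and at 554.9 and 414.4 in B, at least 484.6-fold lower in C3. Eif2s3y, Kdm5d and Uty, which also lie on the Y chromosome, were likewise at the floor in both C3 libraries and at 98.28 to 381.7 normalized reads in B. Xist, the RNA of the inactive X chromosome, was present in B beside them, with centred log2 values of -0.17 and 0.17 in C3 and 4.92 and 4.74 in B (difference -4.83 ± 0.89 standard error (SE), adjusted p = 0.00312). Y-linked and Xist RNA were thus both high in B, and both lower in C3. Against B, Ddx3y differed by 1.43 in C1 and -2.77 in C2, and Xist by -9.86 in C1 and -10.04 in C2. Since the kit does not mark strand, Xist may include reads of the antisense RNA Tsix. Both libraries of each type showed the same, so no difference below can be given without it, and its part in them was not tested.

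Of 14253 genes tested, 2380 (16.7%) rose and 3515 (24.7%) fell in C3 at an adjusted p under 0.05 (limma, Benjamini-Hochberg) and a difference of at least 1 log2, 41.4% in all. Of the called genes 40.4% rose, or 52.1% under quantile normalization. The median difference was -0.0647. The falls were also the deeper changes, with 760 genes lower and 83 higher by at least 5 log2. Both C3 libraries lay outside the range of both B libraries for 84.3% of the genes, 5670 above and 6344 below. C3 was at the floor in both libraries for 617 of the genes that fell, and B for 65 of those that rose. In comparisons with the same B libraries, 12.6% of genes rose and 21.1% fell in C1, and 14.5% rose and 19.4% fell in C2. Directly between C3 and C2, 11.6% were higher and 16.2% lower in C3. In these bulk samples fewer cells of a type and less RNA per cell cannot be told apart.

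**Figure D1:**
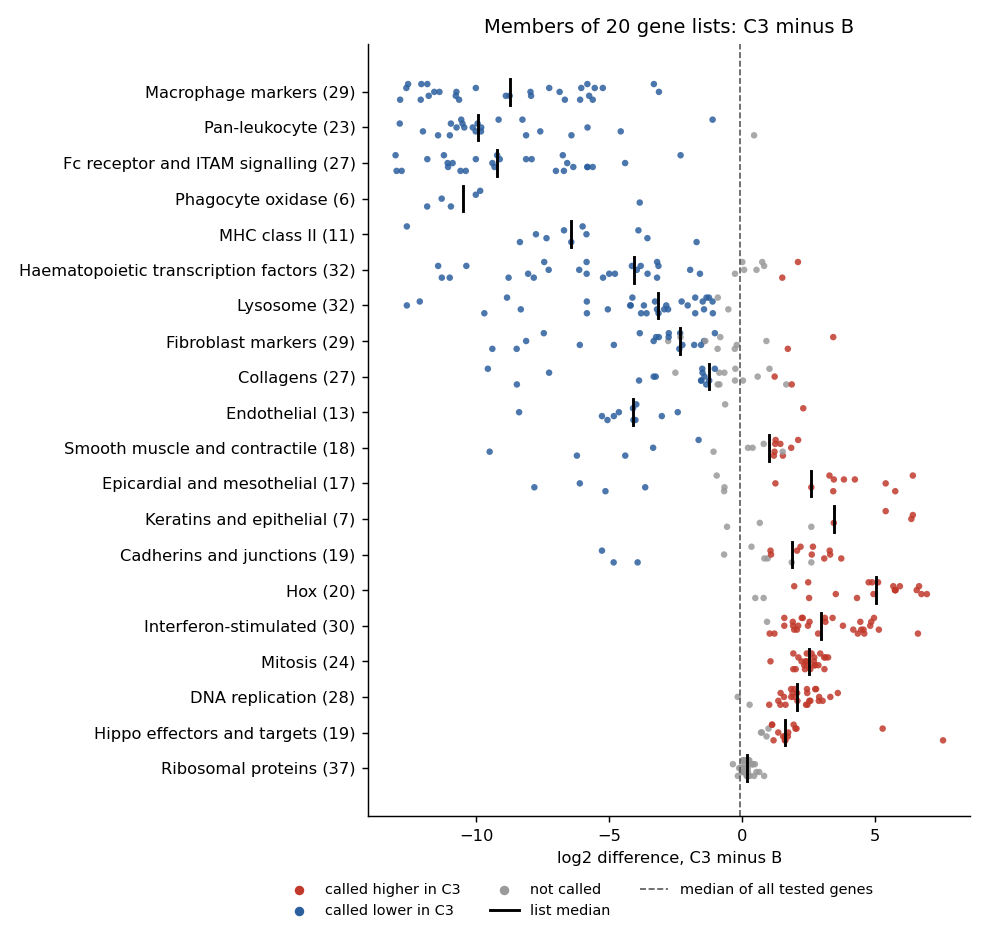
Each point is 1 tested gene, placed by its log2 difference C3 minus B (horizontal axis) in 1 of 20 gene lists (rows, number of tested members in brackets), in red where higher in C3, blue where lower and grey where not called. The black bars are list medians, from -10.5 for the phagocyte oxidase to 5.03 for the Hox genes, and the dashed line is the median of all tested genes, -0.0647.

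Macrophage genes fell together in C3, many of them to the floor. All 29 tested macrophage markers fell, with a median of -8.74, and 11 were at the floor in both C3 libraries. Ptprc, which encodes CD45 (chr1:138062859-138175756, GRCm38), was at 1 and 1 normalized reads in C3 and at 2823 and 2723 in B, at least 2773-fold lower in C3 (adjusted p = 0.000103). That order is the one the CD45 labels of both types give. Kit, the gene of the c-kit label, was at 1 and 1 normalized reads in C3 and at 22.89 and 12.67 in B. It was called lower (adjusted p = 0.0317), but whichever of the 4 libraries was left out the call was lost (adjusted p from 0.0793 to 0.134), as it was with quantile normalization (0.104) or a common floor (0.285). Emr1, the classic surface antigen of mouse macrophages, was at 2.073 and 1.18 normalized reads in C3 and at 12244 and 11102 in B (-12.86 ± 1.42). Csf1r had centred log2 values of -0.67 and -0.60 in C3 and 7.35 and 7.27 in B (-7.94 ± 1.19, adjusted p = 0.00117). In Ptprc, Emr1 and Csf1r the 2 libraries of a type lay close together and far from the other type. Ms4a7 was at 1 and 1 normalized reads in C3 and at 6345 and 6324 in B, and the Fc receptor gene Fcgr1 at the floor in C3 and at 997 and 1075 in B. The other 3 markers of the list, Timd4, Emr4 and Ly6c2, were below the filter on low values. A gene of known level entered the test only where at least 2 libraries reached 10 normalized reads, so that a member seen in B alone had to differ, and the counts of members are descriptions. The standard errors come from the spread within all 5 types, the 2 A libraries included.

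The losses reached through the white blood cell lists. Of 23 genes shared by most leukocytes 22 fell, with a median of -9.95, and the exception was the hyaluronan receptor Cd44 (0.45, adjusted p = 0.102). All 27 genes of Fc receptor and ITAM signalling fell. Tyrobp, the adaptor that links many of these receptors to the kinase Syk, was at 1 and 1 normalized reads in C3 and at 8011 and 8337 in B, at least 8174-fold lower. All 6 genes of the phagocyte oxidase, the enzyme of the respiratory burst, fell, and its catalytic subunit Cybb was at 1 and 1 normalized reads in C3 and at 3799 and 3570 in B. C1qa, C1qb and C1qc, the chains of the first complement component made by macrophages, differed by -12.90, -13.28 and -12.94, which places them among the 10 largest falls together with Fcgr2b, Tyrobp, Nckap1l, Laptm5, Emr1, Mmp12 and Fcrls. Of 7 leukocyte integrins 6 fell, and Itgb7 rose by 2.26 ± 0.52. Lists of other blood cells had few members above the filter, with 2 of 16 lymphocyte genes (1 higher and 1 lower), 1 of 12 neutrophil genes (lower), 4 of 10 dendritic cell genes (1 higher and 3 lower) and 6 of 13 mast cell genes (3 higher and 2 lower, of which 1 is Kit; 1 lower under quantile normalization). The T cell gene Cd3e, the natural killer cell gene Nkg7, the neutrophil gene Ly6g, the dendritic gene Flt3 and the mast cell genes Tpsb2, Fcer1a and Ms4a2 were listed at 0, and the mast cell gene Cpa3 was at 1 and 1 normalized reads in C3 and at 2.294 and 3.621 in B.

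Transcription factors of blood cells fell in most cases. Of 32 tested, 24 fell, 2 rose and 6 were not called, with a median of -4.05. Sfpi1, the gene of PU.1 (chr2:91082374-91115759), was at 1 and 1.589 normalized reads in C3 and at 2488 and 2670 in B (-11.00 ± 1.25, adjusted p = 0.000343). Irf8, a partner of PU.1, was at the floor in C3 and at 1329 and 1324 normalized reads in B. Lmo2, an adaptor of blood progenitors, differed by -11.43 ± 0.81. Runx1 had centred log2 values of 0.01 and 0.15 in C3 and -0.01 and 0.02 in B, and its difference of 0.07 ± 0.24 was smaller than its error (adjusted p = 0.812). Ets1 rose by 1.51 ± 0.19. In the list of blood progenitors 5 of 10 fell, of which 1 is Kit with the fragile call given above, and 1 rose, which was Gata2, and under quantile normalization 3 fell and 2 rose. Gata2 rose by 2.10 ± 0.50 (adjusted p = 0.00988), a call lost without the second B library or the first C3 library (highest adjusted p = 0.057).

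Promoters of 3 genes from these lists are shown because they had the largest falls among members whose promoter holds a form of the purine-rich box that PU.1 is known to bind. Each line gives the 250 bases before the start listed for the gene in the RefSeq promoter table (build GRCm38.p6). It reads 5′ to 3′ on the strand of the gene, which is the plus strand here. For Laptm5 the listed start lies inside the annotated gene, which begins at chr4:130912890. Capitals mark GAGGAAG, searched on both strands, here found on the minus strand and so printed as its reverse complement. Laptm5, a lysosomal membrane protein of leukocytes, is read from chr4:130913066-130913315, Trem2, a lipid receptor of macrophages, from chr17:48346151-48346400, and Mrc1, the mannose receptor, from chr2:14229164-14229413.
Laptm5: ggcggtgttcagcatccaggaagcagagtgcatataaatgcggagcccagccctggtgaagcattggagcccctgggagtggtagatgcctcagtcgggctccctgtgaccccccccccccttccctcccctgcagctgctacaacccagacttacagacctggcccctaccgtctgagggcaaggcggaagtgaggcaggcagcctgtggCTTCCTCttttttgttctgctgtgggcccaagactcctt
Trem2: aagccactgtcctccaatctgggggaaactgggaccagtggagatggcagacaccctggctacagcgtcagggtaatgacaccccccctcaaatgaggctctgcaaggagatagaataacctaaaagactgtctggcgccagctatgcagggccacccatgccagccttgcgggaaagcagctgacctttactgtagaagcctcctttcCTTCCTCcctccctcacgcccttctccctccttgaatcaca
Mrc1: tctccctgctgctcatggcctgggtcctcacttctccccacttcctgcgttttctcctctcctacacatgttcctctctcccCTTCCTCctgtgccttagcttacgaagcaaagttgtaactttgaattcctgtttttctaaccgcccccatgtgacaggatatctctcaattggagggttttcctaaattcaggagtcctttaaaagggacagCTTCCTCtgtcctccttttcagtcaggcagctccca
The match begins 39 bases before the listed start of Laptm5 and 41 before that of Trem2, and at 168 and 36 bases in Mrc1. In the windows from 250 bases before to 50 after the start, GAGGAAG was in 26.5% of 565 genes that fell by at least 5 log2, and in 13.5% of all 27025 genes with a window. The share was 12.3% among genes that rose and 15.9% among all genes that fell. In the macrophage, pan-leukocyte and Fc receptor lists together 22 of 55 windows held it (40%), but so did 6 of 16 windows of the Hippo list (37.5%), whose genes rose. A match of letters is a description of these windows and not a binding site.

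Close relatives of the lost genes made a direct contrast. In 29 pairs of a gene largely confined to white blood cells and a broadly expressed relative, all 29 leukocyte members fell, with a median of -9.16, while 6 of the relatives rose, 4 fell and 19 were not called, with a median of 0.08. Nckap1l, the blood cell form of an actin regulator in the WAVE complex, was at 1 and 1 normalized reads in C3 and at 7865 and 7360 in B. Its relative Nckap1 had centred log2 values of 0.52 and 0.68 in C3 and -1.36 and -1.65 in B (2.10 ± 0.19, adjusted p = 0.000124). The same contrast held for the integrin chains Itgb2 (-6.42 ± 1.05) and Itgb1 (0.11 ± 0.13, adjusted p = 0.485), and for the kindlins Fermt3 (-8.26 ± 1.01) and Fermt2 (1.67 ± 0.12), which activate integrins. Among tyrosine kinases, Syk fell by 4.40 log2, while the focal adhesion kinase Ptk2 rose by 2.00. Myo1e, Sash1, Tnfaip8 and Arhgap24 were the 4 relatives that fell too.

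**Figure D2:**
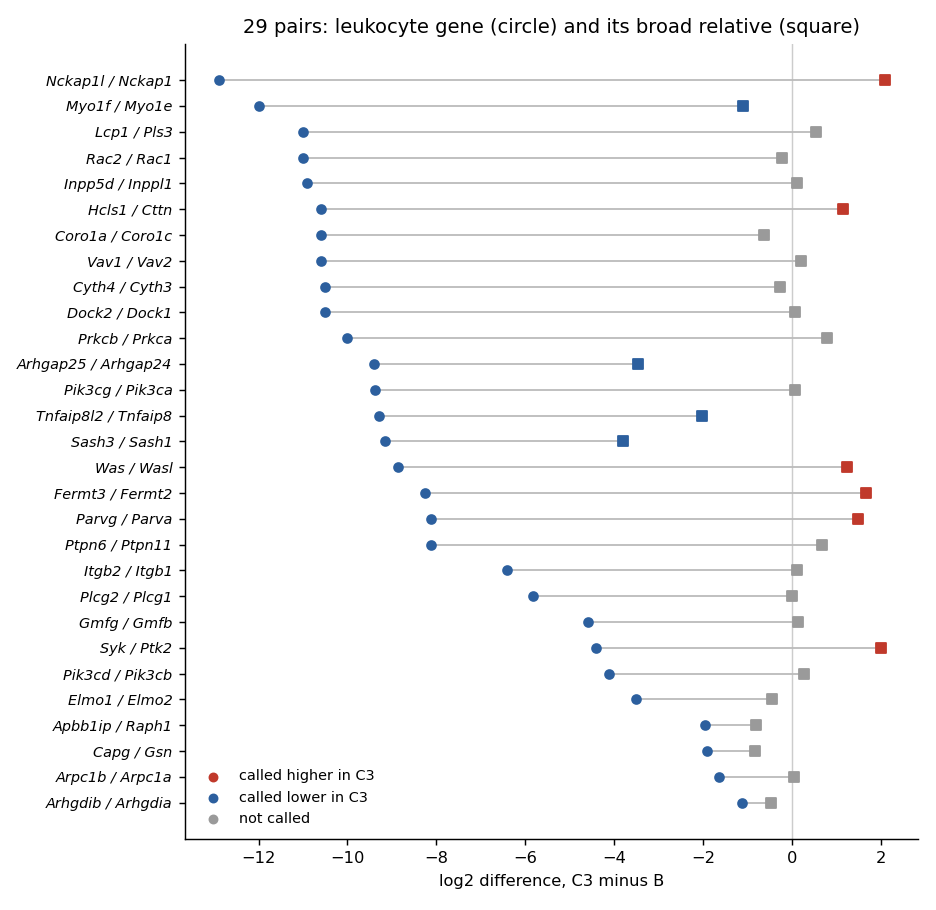
Each row is a pair of related genes, with the leukocyte gene as a circle and its broadly expressed relative as a square, placed by log2 difference C3 minus B, in red where higher, blue where lower and grey where not called. In 29 of 29 pairs the circle lies left of the square, and the medians are -9.16 and 0.08.

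Receptors and secreted signals of the immune system mostly fell, with exceptions. Of 24 chemokines and receptors 20 fell and 2 rose. Pf4, a platelet and macrophage chemokine, was at 1 and 1 normalized reads in C3 and at 4037 and 4194 in B. Cxcl10, a chemokine induced by interferon, had centred log2 values of 5.57 and 4.47 in C3 and -0.33 and -0.09 in B (5.23 ± 0.77, adjusted p = 0.0011). Ccl5 was called with 25.64 and 15.45 normalized reads in C3 and 9.176 and 1.81 in B, a call lost without the second B library or either C3 library and in the fit of the 4 libraries alone (adjusted p up to 0.138 over the libraries left out). Of 28 interleukin and colony-stimulating factor genes 19 fell and 2 rose, and those 2 are a ligand and its receptor, Il33 (4.51 ± 0.53) and Il1rl1 (4.60 ± 0.66). Of 17 Toll-like receptor genes 12 fell, of 19 complement genes 13, and all 11 of MHC class II. Of 16 genes of MHC class I presentation 6 fell and 10 were not called, with a median of -0.432. H2 genes are near-identical copies whose reads the counting could split, and their values are uncertain.

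Genes of the lysosome, the degradative organelle of phagocytes, fell as well, 30 of 32 of them, with a median of -3.17. Ctsh, an aminopeptidase cathepsin, had centred log2 values of -6.45 and -6.16 in C3 and 2.50 and 2.59 in B (-8.84 ± 0.21, adjusted p = 6.8e-07), and Ctsk, a collagen-degrading cathepsin, differed by -9.70 ± 0.34. Ctss, a cathepsin of antigen processing, differed by -12.61 ± 1.62. With B as the common base, 18 of the 32 fell in C1 and 26 in C2. Of 28 genes of lipid and cholesterol handling 12 fell and 16 were not called. Cd36, a scavenger receptor for oxidized lipid, was at 1 and 1 normalized reads in C3 and at 5068 and 4968 in B, and Apoe, the main apolipoprotein of macrophages, differed by -9.61 ± 0.22.

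Genes of fibroblasts and of their matrix were mostly lower in C3. Of 29 fibroblast markers 19 fell and 2 rose in C3, with a median of -2.33, while 7 fell and 6 rose in C1 and 11 fell and 6 rose in C2, all against the same B libraries. Pdgfra, a growth factor receptor that marks cardiac fibroblasts (chr5:75151322-75198206), had centred log2 values of -2.79 and -3.47 in C3 and 0.03 and -0.03 in B (-3.13 ± 0.23, adjusted p = 5.64e-05). Its differences from B were -0.35 in C1 and 0.37 in C2, neither called. Thy1, a surface protein of fibroblasts and lymphocytes, was at 1 and 1.589 normalized reads in C3 and at 831.9 and 865.7 in B. Tcf21, a transcription factor of epicardial and fibroblast cells, differed by -6.11 ± 0.41 and Postn, a matrix protein of activated fibroblasts, by -8.48 ± 0.38. Of the 2 that rose, Twist1 differed by 1.72 ± 0.20 and Wt1 by 3.43 ± 1.03, and the call of Wt1 was lost whichever of the 4 libraries was left out (adjusted p up to 0.124).

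Among 27 collagen genes 14 fell and 2 rose in C3, against 2 that fell and 14 that rose in C2. Under quantile normalization the falls in C3 numbered 6. Col14a1, which organizes fibrils, differed by -9.56 ± 0.46 and Col6a3, of microfibrils around cells, by -7.26 ± 0.58. Col1a2, a chain of the main fibrillar collagen, fell by 1.54 ± 0.32, while its partner Col1a1 differed by -0.92 ± 0.24 and missed the threshold of 1. The 2 collagens that rose were Col27a1, whose call was lost whichever library was left out (adjusted p up to 0.0985), and Col4a6, whose call was lost without the second B library or the first C3 library (adjusted p up to 0.0574). Of 49 glycoproteins and proteoglycans of the matrix 26 fell and 6 rose. Eln, the elastin gene, was at 1 and 1 normalized reads in C3 and at 214.6 and 233.9 in B (named after its values were seen). Ltbp1, which holds latent TGF-beta in the matrix, rose by 3.76 ± 0.48, and Vcan, a large proteoglycan, by 1.59 ± 0.25. Of 29 matrix proteases and inhibitors 18 fell. Only Plaur, the urokinase receptor, was called higher (1.49 ± 0.48, adjusted p = 0.0313), and that call was lost whichever library was left out (adjusted p up to 0.145).

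Vascular and nerve-associated genes were also lower. Of 13 endothelial genes 11 fell and 1 rose. Pecam1 was at 1 and 1 normalized reads in C3 and at 34.41 and 32.59 in B, and Cdh5, the cadherin of endothelial junctions, at 1 and 1 in C3 and at 43.41 and 34.4 in B. Kdr, a receptor for vascular endothelial growth factor, had 30.09 and 49.02 normalized reads in C3 and 213.5 and 198.4 in B (-2.42 ± 0.57, adjusted p = 0.009), but the call was lost without the first C3 library (adjusted p = 0.0587), and quantile normalization turned the difference to 1.03. Flt1, another receptor of that factor, rose by 2.30 ± 0.67, a call lost whichever library was left out (adjusted p up to 0.103). Sox10, of Schwann and neural crest cells, was at 1 and 1 normalized reads in C3 and at 39 and 23.54 in B, and 5 of 9 genes of that list fell and 1 rose. Of 5 adipocyte genes 4 fell, while the defining markers Adipoq and Plin1 were at the floor in both types. Of 18 smooth muscle and contractile genes 8 rose and 5 fell. Cnn2, a calponin of many cells, differed by 2.11 ± 0.13, whereas Des, the desmin gene, was at the floor in C3 and at 66.26 and 83.28 normalized reads in B. Of the defining markers, Myh11, the myosin of mature smooth muscle, was not called (0.39 ± 0.21, adjusted p = 0.14). Acta2 was called higher (1.19), with centred log2 values of 0.58 and -0.15 in C3 and -0.97 and -0.98 in B. Without the first C3 library Acta2 differed by 0.829, under the threshold. Cnn1, at 15.44 and 3.973 normalized reads in C3 and at 1 and 19.92 in B, was not called.

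Keratins and surface proteins of mesothelium were among the genes that rose. Of 17 epicardial and mesothelial genes 10 rose and 4 fell. Their median was 2.60, or 1.25 with genes at a floor set to their bounds. Msln, the mesothelial surface protein mesothelin, had centred log2 values of 5.03 and 5.12 in C3 and -0.83 and -0.54 in B (5.76 ± 0.44, adjusted p = 6.13e-05). Upk3b, an uroplakin of mesothelium, had 4.21 and 4.37 in C3 and 0.13 and -0.03 in B on the same scale (4.24 ± 0.20). Krt18, a keratin of simple epithelia, had 6.41 and 6.43 in C3 and 0.20 and -0.20 in B (6.42 ± 0.44), and Krt19 differed by 5.40 ± 0.82. Krt14, a keratin of stratified epithelia, was at 111.9 and 139.1 normalized reads in C3 and at 2.294 and 1 in B, under the limit that 3 reads set there. The libraries of the types did not overlap in any of these genes, nor in 84.3% of all tested genes. Of the keratin list 4 of 7 rose, against 1 in C1 and 3 in C2. Its median in C3 was 3.449, or 2.603 with genes at a floor set to their bounds. Krt8, which is in both lists, differed by 3.45, but by 0.765 with a common floor, where its call was lost. Among those that fell were Aldh1a2, which makes retinoic acid (-7.81 ± 1.05), and the complement gene C3 (-3.65 ± 0.35), not to be confused with the cell type.

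Junction genes shifted with them. Of 19 cadherins and junction genes 10 rose and 3 fell, with a median of 1.87. Gja1, the main gap junction protein of heart cells, had centred log2 values of 2.34 and 2.14 in C3 and -1.50 and -1.48 in B (3.73 ± 0.13, adjusted p = 2.48e-06). Tjp1, of tight junctions, differed by 3.29 ± 0.19, F11r, a junction adhesion molecule, by 3.09 ± 0.24, and Cdh3, the P-cadherin gene, by 3.31 ± 0.30. Cdh1, the E-cadherin gene, was not called (2.60 ± 1.07, adjusted p = 0.0722), and its B libraries were far apart, at -2.80 and -0.33. Itga3, an integrin chain that binds laminin, rose by 5.64 ± 0.49. Of 16 matrix integrins 7 fell and 2 rose, or 1 without the second B library, and the falls included Itgb3 (-6.04 ± 0.61) and Itga11 (-5.05 ± 0.37), a collagen receptor of fibroblasts.

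Genes of Hippo signalling, which couples cell contact to transcription through YAP and TEAD proteins, rose in 15 of 19 cases, with a median of 1.61, and the other 4 were not called. Tead4, a DNA-binding partner of YAP (chr6:128227143-128300813), had centred log2 values of 4.18 and 4.38 in C3 and -2.47 and -4.09 in B (7.56 ± 0.58, adjusted p = 6.58e-05). Wwc1, an upstream scaffold, had 3.06 and 2.86 in C3 and -2.27 and -2.37 in B (5.28 ± 0.18). The co-activators Yap1 (1.61 ± 0.13) and Wwtr1 (1.54 ± 0.20) also rose. The targets Cyr61 and Ctgf rose by 1.72 ± 0.23 and 1.18 ± 0.19, and the target Ankrd1 was not called (0.71 ± 0.20, adjusted p = 0.02). The promoter of Cyr61, a matrix protein, is shown with CATTCC, the core that TEAD proteins are known to bind, in capitals. Cyr61 was picked by name and not by the size of its change. In the 250 bases before the start 10 of 16 windows of the Hippo list held CATTCC. The sequence is chr3:145649986-145650235 on the minus strand of GRCm38.p6 (RefSeq, listed there as Ccn1), and the match begins 103 bases before the start.
Cyr61: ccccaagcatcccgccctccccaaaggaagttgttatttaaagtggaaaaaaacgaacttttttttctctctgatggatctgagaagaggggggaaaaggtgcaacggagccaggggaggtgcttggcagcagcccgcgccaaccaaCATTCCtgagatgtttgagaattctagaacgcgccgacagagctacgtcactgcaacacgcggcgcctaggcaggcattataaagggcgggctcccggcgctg
On either strand CATTCC was in 11 of 16 windows of the Hippo list (68.8%) and in 14.6% of all windows, but in 14.0% of genes that rose and 11.9% of genes that fell.

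Genes of growth factor reception changed in both directions, as did tested genes as a whole, of which 16.7% rose and 24.7% fell. Of 31 receptors 9 rose and 11 fell, and 6 fell under quantile normalization. Met, the receptor of hepatocyte growth factor, had centred log2 values of 1.21 and 1.09 in C3 and -3.42 and -3.55 in B (4.64 ± 0.20, adjusted p = 5.44e-06). Fgfr3 (3.51 ± 0.72), the ephrin receptor Epha2 (3.29 ± 0.29) and Egfr (2.71 ± 0.19) rose as well. Those that fell included Acvrl1, a receptor of bone morphogenetic proteins (-4.71 ± 0.20), beside Csf1r, Pdgfra and Mertk, a receptor for dying cells (-5.82 ± 0.19). In the insulin-like growth factor axis 9 of 16 fell, among them the ligand Igf1 (-4.86 ± 0.35) and the binding protein Igfbp2 (-8.37 ± 0.99), while the receptor Igf1r (1.09 ± 0.14) and its substrate Irs1 (1.99 ± 0.43) rose. Of 28 genes of TGF-beta and BMP signalling 12 fell and 5 rose, or 2 without the first B library and 3 without either C3 library. Nog, a secreted BMP antagonist, was at 67.42 and 61.88 normalized reads in C3 and at 8.366 and 7.242 in B, and Gdf15, a stress-induced ligand, differed by -8.84 ± 0.48. Of 26 Wnt genes 9 rose and 6 fell, or 3 without the second B library, with the receptor Fzd6 at 3.57 ± 0.25 and the secreted Dkk3 at -4.73 ± 0.25.

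Hox genes, which record position along the body axis, were the list with the highest median. Of 39 Hox genes 11 were listed at 0 in all libraries, 8 were below the filter, and of the 20 tested 18 rose. The median was 5.03, or 2.99 with genes at the floor or limit in B set to their bounds. Hoxa7 was at 149.9 and 138.5 normalized reads in C3 and at 1 and 1.81 in B, and Hoxd3 at 117.2 and 130.1 in C3 and at 1 and 1 in B, at least 17.97-fold higher in C3. In 18 of the 18 genes that rose both C3 libraries lay above both B libraries. The call itself makes this likely, and the types did not overlap in 84.3% of all tested genes. Hoxb4 (0.81 ± 0.17) and Hoxc6, at 1 and 1.987 normalized reads in C3 and at 1 and 1 in B, were not called. Against the same B libraries 5 of the 20 rose in C1 and 19 in C2. The Hoxa genes lie on chromosome 6, where the median difference of all tested genes was 0.357.

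**Figure D3:**
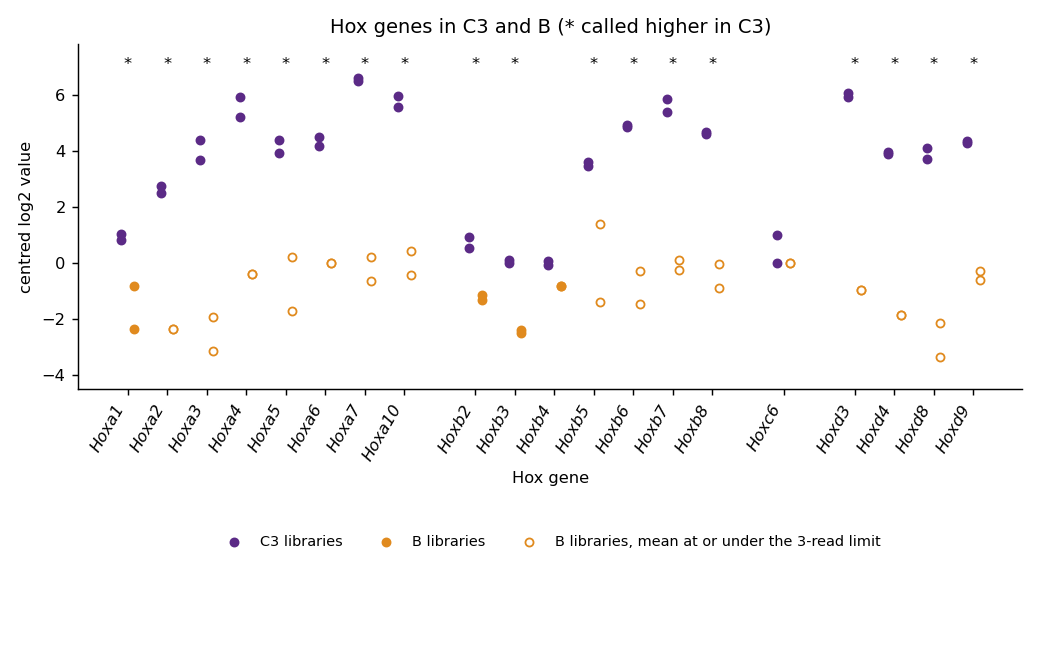
Each point is the centred log2 value (vertical axis) of 1 tested Hox gene in 1 library, with C3 in purple on the left and B in orange on the right of each gene, and B open where its mean was at or under the limit of 3 reads. A star marks the 18 genes called higher in C3, and Hoxb4 and Hoxc6 have none.

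Transcription factors of the heart and of mesenchyme changed in both directions, where 16.7% of all tested genes rose and 24.7% fell. Of 20 cardiac factors 6 rose and 7 fell, or 4 under quantile normalization. Meis2 differed by 2.31 ± 0.15 and Mef2c, which macrophages also express, by -8.58 ± 0.40. Among cardiomyocyte genes 2 of 10 rose and 4 fell. Nppb, the gene of B-type natriuretic peptide, was at 134.5 and 296.1 normalized reads in C3 and at 1 and 1 in B, at least 31.29-fold higher in C3, and Myl7, an atrial myosin light chain, was at 50.37 and 41.4 in C3 and at 1 and 1 in B. Myh6, the main atrial myosin heavy chain, was listed at 0, and Actc1 was below the filter. Those that fell were Cox6a2 (-5.47), Ttn (-1.64), Myl4 (-1.39) and Tnni3 (-1.155). The defining markers Tnnt2 (2.72) and Nppa (-1.51) were not called. Tnnt2 was, however, called higher without A, in the fit of the 4 libraries alone, with libraries weighted and under quantile normalization. The number that fell was 1 without the first C3 library, 2 without the first B library and 0 under quantile normalization. Of 17 factors linked to the transition between epithelium and mesenchyme 6 rose and 8 fell, or 5 under quantile normalization, with Tbx15 at 4.70 ± 0.65 and Foxc2 at -4.86 ± 0.38.

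Interferon-stimulated genes, which cells switch on behind the type I and type III interferon receptors, rose as a list in C3. Of 30 genes 29 rose, with a median of 2.98. Against the same B libraries 2 rose and 8 fell in C1, and 9 fell in C2. Usp18, a protease that removes ISG15 and restrains the response (chr6:121245906-121270917), had centred log2 values of 6.47 and 6.38 in C3 and -0.01 and -0.36 in B (6.61 ± 0.41, adjusted p = 2.6e-05). Ifit1, which binds foreign RNA, had 4.68 and 4.46 in C3 and -0.57 and -0.58 in B (5.14 ± 0.36, adjusted p = 4.72e-05). Usp18 and Ifit1 differed from B by 0.05 to 0.61 in C1 and C2. Mx1 was the member not called (0.94 ± 0.62, adjusted p = 0.229). By role, and named after their values were seen, the signal transducer Stat2 (2.24 ± 0.21), the regulators Irf7 (4.48 ± 0.36) and Irf9 (1.59 ± 0.19), the RNA sensors Ifih1 (1.96 ± 0.14) and Ddx58 (2.48 ± 0.23) and the DNA sensor Zbp1 (4.12 ± 0.48) were higher. The chains of the type I receptor were called lower, with Ifnar1 at -1.56 and Ifnar2 at -2.12. Ifit and Oas genes belong to families of similar copies, and Ifit1 lies on chromosome 19 and Usp18 on chromosome 6, whose medians were 0.406 and 0.357.

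The Ifit1 promoter is shown because it carries the core of the interferon response element at 2 places. The sequence is chr19:34640639-34640888 on the plus strand of GRCm38.p6 (RefSeq), and capitals mark GAAA, any 2 bases and GAAA again, found here on the minus strand at 104 and 85 bases before the start.
Ifit1: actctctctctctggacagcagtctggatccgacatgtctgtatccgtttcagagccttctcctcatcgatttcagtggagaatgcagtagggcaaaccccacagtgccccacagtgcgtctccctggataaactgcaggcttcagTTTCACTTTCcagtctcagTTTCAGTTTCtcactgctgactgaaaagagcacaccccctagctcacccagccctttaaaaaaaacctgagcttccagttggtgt
On either strand this core was in 15 of 23 windows of the interferon list (65.2%), in 3.49% of all windows and in 4.36% of windows of genes that rose. Within the 250 bases before the start alone the share in the list was 47.8%.

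**Figure D4:**
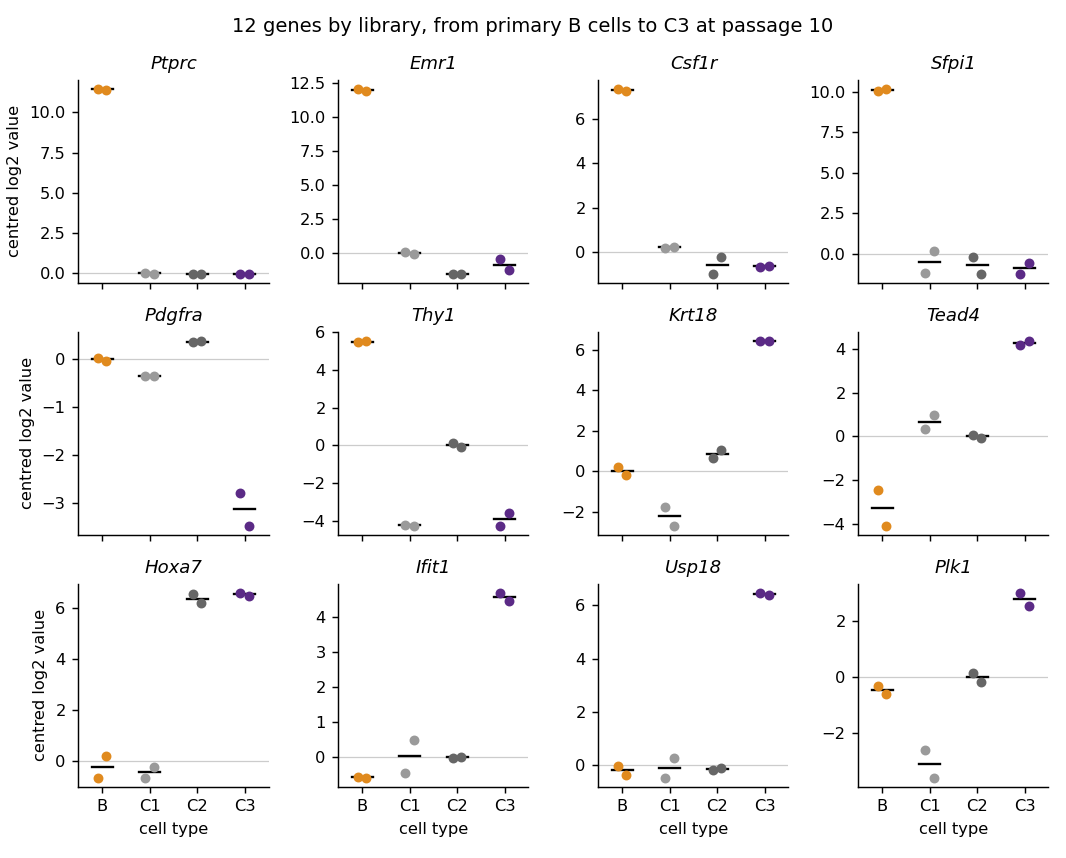
Each panel is 1 gene, with the centred log2 value (vertical axis) of each library as a point and the mean of the type as a bar, in the order of passage from B through C1 and C2 to C3. The leukocyte genes Ptprc, Emr1, Csf1r and Sfpi1 are high in B alone, Ifit1, Usp18 and Krt18 are highest in C3, and Plk1 is at 3.0 and 2.54 in C3.

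Genes of cell division rose in C3. All 24 mitosis genes rose, with a median of 2.50, and 26 of 28 DNA replication genes rose, with a median of 2.07. Against the same B libraries 19 mitosis genes fell in C1 and 9 rose in C2. Plk1, a kinase of mitotic entry (chr7:122159435-122169884), had centred log2 values of 3.0 and 2.54 in C3 and -0.30 and -0.62 in B (3.23 ± 0.34, adjusted p = 0.00024). Kif11, the motor that separates spindle poles, differed by 3.10 ± 0.19, Cenpe, a kinetochore motor, by 3.09 ± 0.18, Orc1, which marks replication origins, by 3.60 ± 0.31, and Mcm10, which starts the fork, by 3.32 ± 0.17. Pcna, the sliding clamp of DNA polymerase, was not called (0.28 ± 0.22, adjusted p = 0.309) and neither was E2f1. In the promoter windows CCAAT was in 17 of 20 mitosis genes (85%) and in 37.9% of all genes, and TTTGAA, the core of the cell cycle homology region, in 15 of 20 (75%) and in 18.1% of all.

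The inhibitors of division at 1 locus on chromosome 4 were low in C3. Cdkn2a, which encodes p16 and p19ARF (chr4:89274473-89294619), had centred log2 values of -8.45 and -7.81 in C3 and -0.19 and 0.19 in B (-8.13 ± 0.30, adjusted p = 3.27e-06). Cdkn2b, which encodes p15 (chr4:89306289-89311032), was at 1 and 1 normalized reads in C3 and at 142.2 and 143 in B, at least 142.6-fold lower. Mtap, an enzyme of methionine salvage next to them (chr4:89137370-89181090, named after its values were seen), had -5.43 and -4.72 in C3 and -0.03 and 0.03 in B (-5.07 ± 0.25, adjusted p = 1.02e-05). Further out on the same side Ptplad2 differed by -1.54 and Klhl9 by -0.82, which was not called. In C1 Cdkn2a and Cdkn2b differed from B by 0.50 and -0.12, neither called, and in C2 by -3.23 and -3.97. Of all 23 CDK inhibitors and p53 targets 2 rose, 6 fell and 15 were not called. Over all tested genes 16.7% rose and 24.7% fell. Trp53, the p53 gene, rose by 1.25 ± 0.12. Mdm2, its ubiquitin ligase, was called at 1.23 ± 0.37, with 0.71 and 1.97 in the C3 libraries, and lost the call without either B library (adjusted p up to 0.0921) or without the second C3 library, where the difference was 0.60. Cdkn1a, the p21 gene, was not called (-0.84 ± 0.45, adjusted p = 0.146).

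Imprinted genes, expressed from 1 parental copy, included changes in both directions at 1 cluster on chromosome 12. Of 23 tested 12 fell and 3 rose in C3, against 2 that fell and 10 that rose in C2. Meg3, a noncoding RNA of the maternal copy, had centred log2 values of -7.32 and -7.72 in C3 and -0.08 and -0.19 in B (-7.39 ± 0.44), and Rian, of the same cluster, differed by -6.20 ± 0.42. Dlk1, the paternally expressed gene beside them, had 4.73 and 4.10 in C3 and 0.17 and -0.17 in B (4.41 ± 0.36, adjusted p = 8.1e-05). Dio3, at the far end, was at the floor in C3 and at 16.06 and 32.59 normalized reads in B. Elsewhere Peg3 rose by 4.14 ± 0.51 and Ndn, on chromosome 7, differed by -4.91 ± 0.28.

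Other genes completed the largest changes. Klra4, of a natural killer receptor family whose copies are near-identical and so uncertain, had centred log2 values of 7.19 and 7.23 in C3 and -1.27 and -1.61 in B (8.65 ± 0.93). Il22ra1, a cytokine receptor chain of epithelia, was at 263.2 and 209.3 normalized reads in C3 and at 1 and 1 in B, at least 34.32-fold higher in C3. Cyp2s1 (7.23 ± 0.48), Anxa8 (6.94 ± 0.55), the interferon-induced GTPase Tgtp1 (6.76 ± 0.37) and Hoxd8 were also among the 10 largest rises. Mcpt8, a protease of basophils, was at 40.83 and 84.4 normalized reads in C3 and at 1 and 1 in B.

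Genes of basic upkeep were mostly not called. Of 37 ribosomal protein genes 0 were called in limma and 6 had an unadjusted p under 0.05, with a median difference of 0.167 and a range of -0.35 to 0.83. Of 18 housekeeping genes 15 were not called, Tbp (1.45 ± 0.15) and Snrpd3 (1.84 ± 0.18) rose and Reep5 differed by -1.22 ± 0.14, with 2 called lower without the first B library and 0 under quantile normalization. Of 25 genes of glycolysis and the hypoxia response 8 fell and 1 rose, against 24.7% and 16.7% of all tested genes. The 1 that rose was Hk2, at 1.04, or at 0.932 and so under the threshold without the second C3 library. Hk3, the hexokinase of blood cells, was at the floor in C3 and at 5997 and 5893 normalized reads in B. Of pluripotency genes Pou5f1 was listed at 0, Nanog was at 2.809 and 1 normalized reads in C3 and at 1 and 1 in B, and 0 of the 3 tested were called in limma, with 1 at an unadjusted p under 0.05.

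By chromosome, 3 autosomes stood above the rest. The chromosomes were looked at after their values were seen, and the values are a description. The median difference C3 minus B was 0.357 over 715 tested genes of chromosome 6, 0.406 over 501 of chromosome 19 and 0.233 over 680 of chromosome 10, and it lay between -0.246 and 0.014 on the other 16 autosomes. On chromosome 6 30.1% of tested genes rose, on chromosome 19 28.3% and on chromosome 10 21.6%, against 12.7% to 18% on the other 16. Both C3 libraries showed it, at 0.413 and 0.367 on chromosome 6, 0.415 and 0.397 on chromosome 19 and 0.214 and 0.232 on chromosome 10. The C2 libraries, set against the same B mean, were at 0.424 and 0.456 on chromosome 6, at 0.502 and 0.464 on chromosome 19 and at 0.429 and 0.384 on chromosome 10, and at -0.599 and -0.579 on chromosome 4. The C1 libraries were at 0.199 and 0.229 on chromosome 10, at 0.044 and 0.084 on chromosome 6 and at 0.061 and 0.112 on chromosome 19, and they had low medians on chromosomes 3, 4 and 7, from -0.884 to -0.783. Klra4, Tead4, Met, Usp18 and the Hoxa genes lie on chromosome 6, and the part of the chromosome's shift in their values was not tested.

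**Figure D5:**
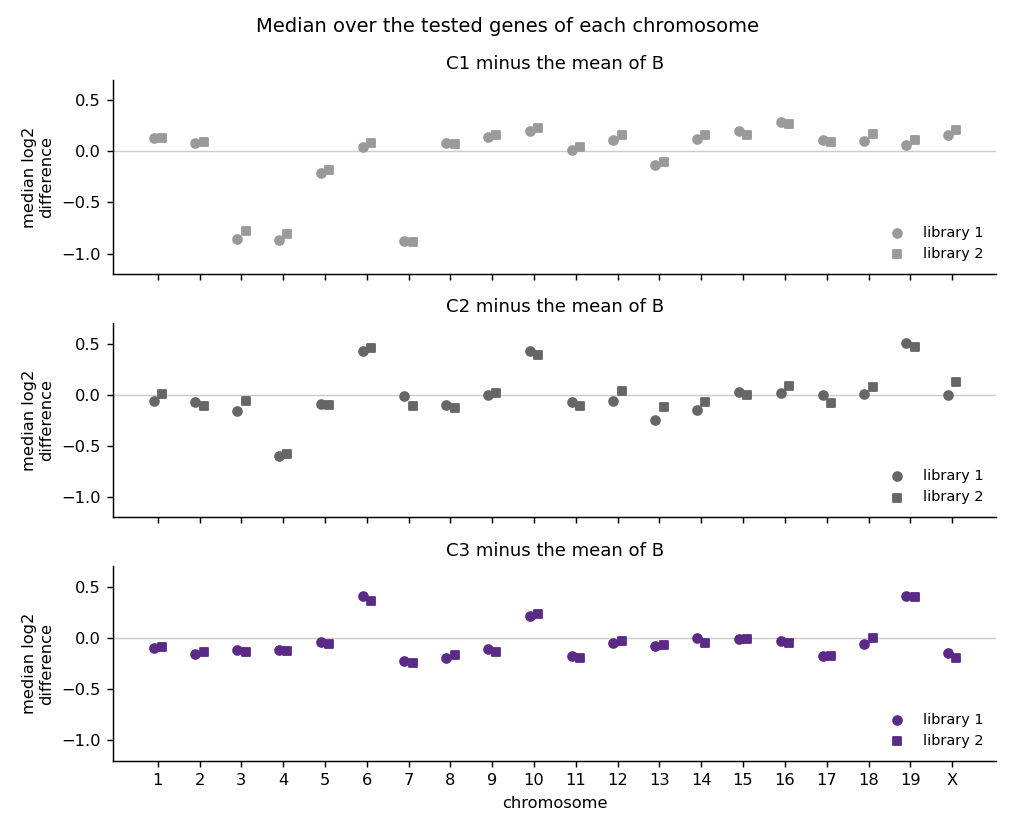
The vertical axis is the median log2 difference from the mean of B over the tested genes of each chromosome (horizontal axis), in panels for C1, C2 and C3 from top to bottom, with a circle for the first and a square for the second library. Chromosomes 6, 10 and 19 stand above 0 in C2 and C3, at 0.413 and 0.367 for chromosome 6 in C3, chromosome 10 also does in C1 (0.199 and 0.229), and chromosomes 3, 4 and 7 stand below 0 in C1.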

How the data were processed

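Libraries came from total RNA of sorted cells with an Illumina TruSeq kit, per the labels' protocols, and this kit does not mark strand. Per the submitters' processing notes TopHat, DESeq and mm10 were used, without a version or a stated role. How reads were counted, and on which annotation, was not given in the sources used here. As deposited, the values are log2 values of 36172 genes in 10 libraries. Their unit was inferred from the values as log2 normalized reads with a floor of 1, centred on the median of each gene. Of these genes 17821 had values, 18334 were 0 in every library, and 17 with a cell turned into a date were left out. The level was known for 4763 genes.

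Low values are spaced by the worth of 1 read in a library, which gave the relative depth, and 73.8% and 73.4% of low values were whole reads within 0.01 in B but 41.8% and 33.1% in C3, so that no count test was run and the depth of C3 is the less certain. Total depth is unknown, and the number of libraries limits the precision. A gene of known level was tested if 10 normalized reads or more were found in at least 2 libraries, and a gene of unknown level was always tested, which left 14253, of which 1195 have a known level. limma 3.58.1 in R 4.3.3 was fitted to all 10 libraries with a mean per type, 5 residual degrees of freedom and empirical Bayes shrinkage, two-sided, with Benjamini-Hochberg adjustment over all tested genes. Calls needed an adjusted p under 0.05 together with a difference of at least 1 log2. The spacing search and the fit were tested on simulated data. The simulated libraries had a smaller share of values off whole reads than C3, so the test of the spacing search does not cover C3. Errors are standard errors from this fit, with 2 libraries per type, and differences are C3 minus B. Coordinates of genes are from the annotation of GRCm38.p6, and promoter windows from RefSeq matched 11059 tested genes. Protein sequences were not used here. Some genes of the lists and 1 pair are not reported here.

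The genes, lists and pairs were chosen with earlier results of these data known. Genes were named where they were among the 10 largest rises or falls, among up to 4 called members of a list per direction with the largest differences, members of a pair, or markers that check the labels. Other list members named by role or because they were not called, the interferon receptors, Zbp1, Mtap and its neighbours, the chromosomes and the motifs of the mitosis and interferon lists were chosen after their values were seen. The windows of the promoter motifs cover 250 bases before to 50 after the first listed start of a gene, and GAGGAAG contains the shorter GAGGAA that was also searched. The main fit did not pair libraries by the replicate numbers in the labels. Alternatives covered the libraries in the fit, the filter, the normalization, the floor, the shrinkage, the call rule, the replicate block and each library left out.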

Additional observations from a re-analysis of the deposited data

How the results depend on the processing

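The number of genes called higher in C3 was 2380 and stayed within 1.5 times of that in all alternatives but a test against the threshold of 1 log2 (limma's treat), with 1113, and a call on adjusted p alone, with 3861. The number called lower was 3515, and it was 2303 under quantile normalization and 2223 with treat. With 1 of the 4 libraries left out, which assumes that the lone library varies like the other types, 2119 to 2258 genes were called higher and 3193 to 3234 lower, and these held 85% to 88.4% and 87.9% to 88.9% of the genes called in the full fit. The fit of the 4 libraries alone called 2416 and 3602 genes, that without the A libraries 2467 and 3640. The fit with the replicate block called 2383 and 3516 genes. The deviations of same-numbered B and C3 libraries from the means of their types had a correlation of -0.000198 over 14253 genes. This value cannot show whether same-numbered libraries share a mouse or a batch, and the labels do not say. Of 310 named genes 285 were called. Of those called, Kdr was the only one to change sign, at 1.03 under quantile normalization, where 15 lost their call. Leaving out 1 library ended the call of 27 named genes in at least 1 of those fits. The cause was not tested.

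In the 250 bases before the start alone, the share of promoters with GAGGAAG among genes that fell by at least 5 log2 was 22.1%, that with GAGGAA was 35.8%, and that of mitosis genes with TTTGAA was 35%, against 26.5%, 42.7% and 75% in the whole window. The low depth of B limits rises from a B level under 6.88 normalized reads, for which a bound or the values stand in place of a fold, and 134 of the genes called higher had B at or under that limit.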

Other observations

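All genes named here were chosen after their values were seen. Igf2bp1, which stabilizes growth-related messages, differed by 5.01 log2 from B, and Hmga2, an architectural chromatin factor, by 2.96. Il28ra, a receptor chain for type III interferon, differed by 2.34, while Il10rb, its partner chain, differed by -2.75, and the chains of the interferon gamma receptor, Ifngr1 and Ifngr2, by -1.09 and -1.16.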
